A study of Mus musculus with 6 samples.

Results

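The genes of the proteasome were compared between microglia with and without overexpression of PGC-1α. Members were selected by gene symbol alone: Psm followed by a, b, c, d or e and a number. A RefSeq gene table held 43 such genes, of which 42 were found among the 23462 genes with a named probe on the array, and Psme2 matched no probe. The 42 genes had 64 probes. Of these genes, 41 had a signal well above background throughout 1 group or both and were tested. On none of the 6 arrays was Psmb11, the beta subunit of thymus cells, well above background.

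Microglia were taken from male mice aged 10 weeks on a C57BL/6 background, without stroke, by magnetic selection for the surface receptor P2RY12. Both groups carried the PGC-1αf/f transgene, which makes PGC-1α only after Cre recombinase has acted on its loxP sites. In mPGC-1α mice (3 arrays) this was done by Cx3cr1-CreERT2, a tamoxifen-dependent Cre placed in the Cx3cr1 locus, which is also active in macrophages outside the brain tissue proper, and the controls (3 arrays) were PGC-1αf/f littermates without Cre. The labels name each array as a separate sample and say nothing more on its source, so p-values measure the spread between these samples.

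The proteasome is the large protease that degrades proteins tagged with ubiquitin. Its barrel, the 20S core, is built of outer rings of alpha subunits (Psma genes) and inner rings of beta subunits (Psmb genes), and the beta subunits encoded by Psmb5, Psmb6 and Psmb7 carry the active sites. The 19S regulatory particle, with its ring of ATPases (Psmc genes) and its non-ATPase subunits (Psmd genes), binds the ubiquitin chain, unfolds the substrate and feeds it into the barrel. Interferon induces Psmb8, Psmb9 and Psmb10, whose products take the places of the 3 active subunits and form the immunoproteasome, and PA28 (Psme1 and Psme2), a cap that can stand in for the 19S particle. Microglia are the resident macrophages of the brain, and in such cells the proteasome also supplies the peptides that class I molecules present.

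The comparison of constitutive with inducible subunits turns on the catalytic genes, so the 250 bases before their RefSeq starts (GRCm38.p6) are shown. Windows were found for 36 of the 43 genes, and there was no entry for Psmb7. Capitals mark the antioxidant response element core TGACNNNGC in Psmb5 and Psmb6, the gamma-activated site TTCNNNGAA in Psmb8, a CCAAT box on the opposite strand in Psmb9, and the ERR half-site AAGGTCA, bound by the oestrogen-related receptors that PGC-1α works with, on the opposite strand in Psmb10.
Psmb5, chr14:54617996-54618245 (- strand): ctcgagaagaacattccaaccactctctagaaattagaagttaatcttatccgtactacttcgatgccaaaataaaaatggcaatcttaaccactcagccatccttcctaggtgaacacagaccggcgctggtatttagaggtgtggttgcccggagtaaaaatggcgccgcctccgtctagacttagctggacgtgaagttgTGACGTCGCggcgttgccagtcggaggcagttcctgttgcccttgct
Psmb6, chr11:70525107-70525356 (+ strand): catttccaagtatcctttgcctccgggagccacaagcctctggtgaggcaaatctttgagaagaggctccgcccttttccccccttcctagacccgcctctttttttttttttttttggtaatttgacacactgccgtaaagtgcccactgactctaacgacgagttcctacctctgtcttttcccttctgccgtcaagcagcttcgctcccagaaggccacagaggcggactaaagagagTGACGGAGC
Psmb8, chr17:34197945-34198194 (+ strand): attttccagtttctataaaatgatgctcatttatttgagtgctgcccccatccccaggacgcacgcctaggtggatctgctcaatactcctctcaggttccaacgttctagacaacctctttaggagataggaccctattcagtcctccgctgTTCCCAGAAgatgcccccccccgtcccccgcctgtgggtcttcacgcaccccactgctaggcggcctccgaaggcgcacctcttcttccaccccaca
Psmb9, chr17:34187331-34187580 (- strand): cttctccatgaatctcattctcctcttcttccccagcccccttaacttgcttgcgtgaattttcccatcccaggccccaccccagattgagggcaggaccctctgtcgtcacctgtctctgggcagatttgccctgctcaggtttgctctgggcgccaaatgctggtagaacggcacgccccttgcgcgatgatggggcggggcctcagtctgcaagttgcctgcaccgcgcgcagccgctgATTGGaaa
Psmb10, chr8:105938393-105938642 (- strand): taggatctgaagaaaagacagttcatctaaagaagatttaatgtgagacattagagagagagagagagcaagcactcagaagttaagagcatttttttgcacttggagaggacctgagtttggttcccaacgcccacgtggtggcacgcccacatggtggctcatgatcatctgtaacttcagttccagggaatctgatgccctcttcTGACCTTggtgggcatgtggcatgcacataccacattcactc

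Both strands were searched, and each match is a description of letters and not of a bound site. The antioxidant response element core was found before 5 of the 36 genes (Psmb5, Psmb6, Psmc6, Psmd12 and Psmd9), while 10.2% of all 32851 windows held it. The gamma-activated site was found before Psmb8 only, and in 7.02% of all windows. The ERR half-site lay before Psma3, Psmb10 and Psmd2, and in 4.08% of all windows. The CCAAT box was found before 14 of the 36 genes and in 33.8% of all windows, and a core of the interferon-stimulated response element before Psmb3, Psmd4 and Psmd9 and in 2.98%. The Psmb5 match ended 39 bases before the start and the Psmb8 match 89 bases before it.

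Levels are given as log2 intensity minus the array's own 75th percentile, so that 1 unit is a doubling and levels of different genes are not compared. Values are listed in the order of replicates 1, 2 and 3, and each difference is the fitted log2 level of mPGC-1α minus that of PGC-1αf/f. The 12 microglial markers were well above background on all 6 arrays. PGC-1α itself (Ppargc1a) stood at 0.19, -0.44 and -1.21 in the PGC-1αf/f arrays and at 0.57, 0.28 and 0.08 in the mPGC-1α arrays, so that the groups overlapped. Its difference was 0.80 (SE 0.35, 1.74-fold, adjusted p = 0.306, limma), and the second Ppargc1a probe gave 0.59 (adjusted p = 0.445). Both probes read higher on average under the mPGC-1α label, short of the threshold. Leaving out PGC-1αf/f replicate 3 gave 0.44 (adjusted p = 0.507) and the blood leukocyte covariate 0.39 (adjusted p = 0.773) for the first probe. PGC-1αf/f replicate 3 stood apart, its correlation with the others averaging 0.928 where every other array reached 0.962 to 0.972, and with blood leukocyte markers at -1.72 against 0.68 to 1.33 on the other 5 arrays. Since all PGC-1αf/f arrays lay in slide row 1 and all mPGC-1α arrays in row 2, slide row and group cannot be told apart.

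To determine whether PGC-1α overexpression altered the expression of the proteasome, each gene was tested with limma across all probes. No proteasome gene passed an adjusted p of 0.05 (smallest 0.256), at a background of 0.0535% of all genes and 0.0792% of all probes. At an unadjusted p under 0.05, 0 members were higher and 1, Psma8, was lower, against 7.83% and 5.75% of all 13085 genes. The differences of the 41 genes lay between -0.45 and 0.46, and none reached 0.5 in size, which 17.5% of all genes did. The median size of the difference was 0.14 for members and 0.20 for all genes. The members were also tight within groups, with a median SD of 0.15 against 0.21 for all genes, and the median half-width of the 95% interval was 0.37. Differences below about that size could not be told from 0 with 3 arrays a group. In such bulk samples fewer cells of a type and less RNA per cell cannot be told apart.

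**Figure D1:**
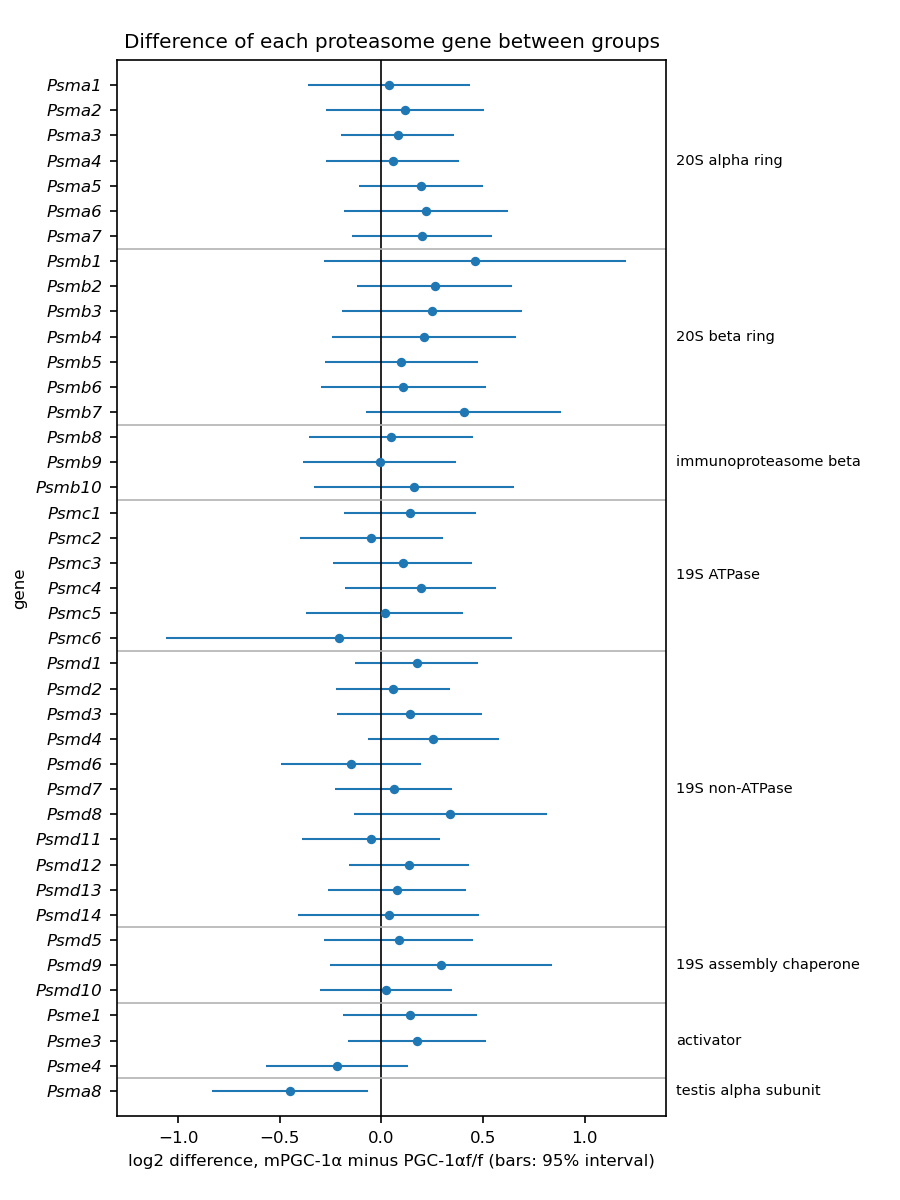
Log2 difference (mPGC-1α minus PGC-1αf/f, 3 arrays each, x axis) of the 41 tested proteasome genes (y axis), ordered by role, with points for the fitted value and bars for its 95% interval. Every interval but that of Psma8 crosses 0, and no adjusted p was under 0.256.

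The differences leaned upwards: 34 of 41 members (82.9%) were above 0, against 52.9% of all genes, with a median of 0.11 against 0.02. This count depended on the scaling of the arrays. With arrays aligned on their medians it was 18 of 41, beside 34.7% of all genes. That setting moved the median of all genes to -0.115 (against 0.02) and that of the members to -0.024. With quantile normalization the count was 26 of 41, beside 47.1% of all genes. The members' median minus that of all genes lay between 0.049 and 0.135 over the main and the 19 other settings. For 37 members a value was present everywhere. In 4 of these (10.8%) the mPGC-1α arrays lay wholly above the controls and in 1 wholly below, beside 12.4% and 10.7% of all genes. The share of separated members was thus near the background in the upward direction and below it in the downward direction.

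The 20S core leaned upwards in the main setting. All 7 alpha subunits and all 7 beta subunits of the core were above 0, with a median difference of 0.12 for the alpha ring, 0.25 for the beta ring and 0.20 for the 14 together, although no adjusted p was under 0.352. Alignment on the medians, which shifts all genes alike, left 8 of 14 above 0, beside 34.7% of all genes. Quantile normalization left 9 of 14, beside 47.1% of all genes. With it the alpha ring had 3 of 7 above 0 (median -0.001) and the beta ring 6 of 7 (median 0.161). The core median minus that of all genes was 0.18 both as reported and after alignment on the medians, 0.11 after quantile normalization, 0.089 with array weights and 0.079 with normexp and quantile. By array, the core genes stood a median of 0.075, -0.074 and -0.30 from their own means in PGC-1αf/f and 0.10, 0.023 and 0.21 in mPGC-1α. PGC-1αf/f replicate 3 was thus low and mPGC-1α replicate 3 high, and the other 4 arrays overlapped. PGC-1αf/f replicate 3 held the lowest value for 11 of 13 core genes with all values (84.6%), but for 3 of 14 genes of the 19S particle (21.4%), beside 33.8% of all genes. Without it the core median was 0.086 with 11 of 14 above 0 (beta ring 0.068, 5 of 7), and without mPGC-1α replicate 3 it was 0.11 with 12 of 13. With the blood leukocyte level as a covariate it was 0.058, with 10 of 14 (beta ring 0.020, 5 of 7). Slide columns 1 and 2 each held an array of both groups and not PGC-1αf/f replicate 3. Within them the core median was 0.060 and 0.062, beside 0.009 and 0.021 for all genes. The alpha ring stood at 0.060 and 0.114 there and the beta ring at -0.015 and 0.022.

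**Figure D2:**
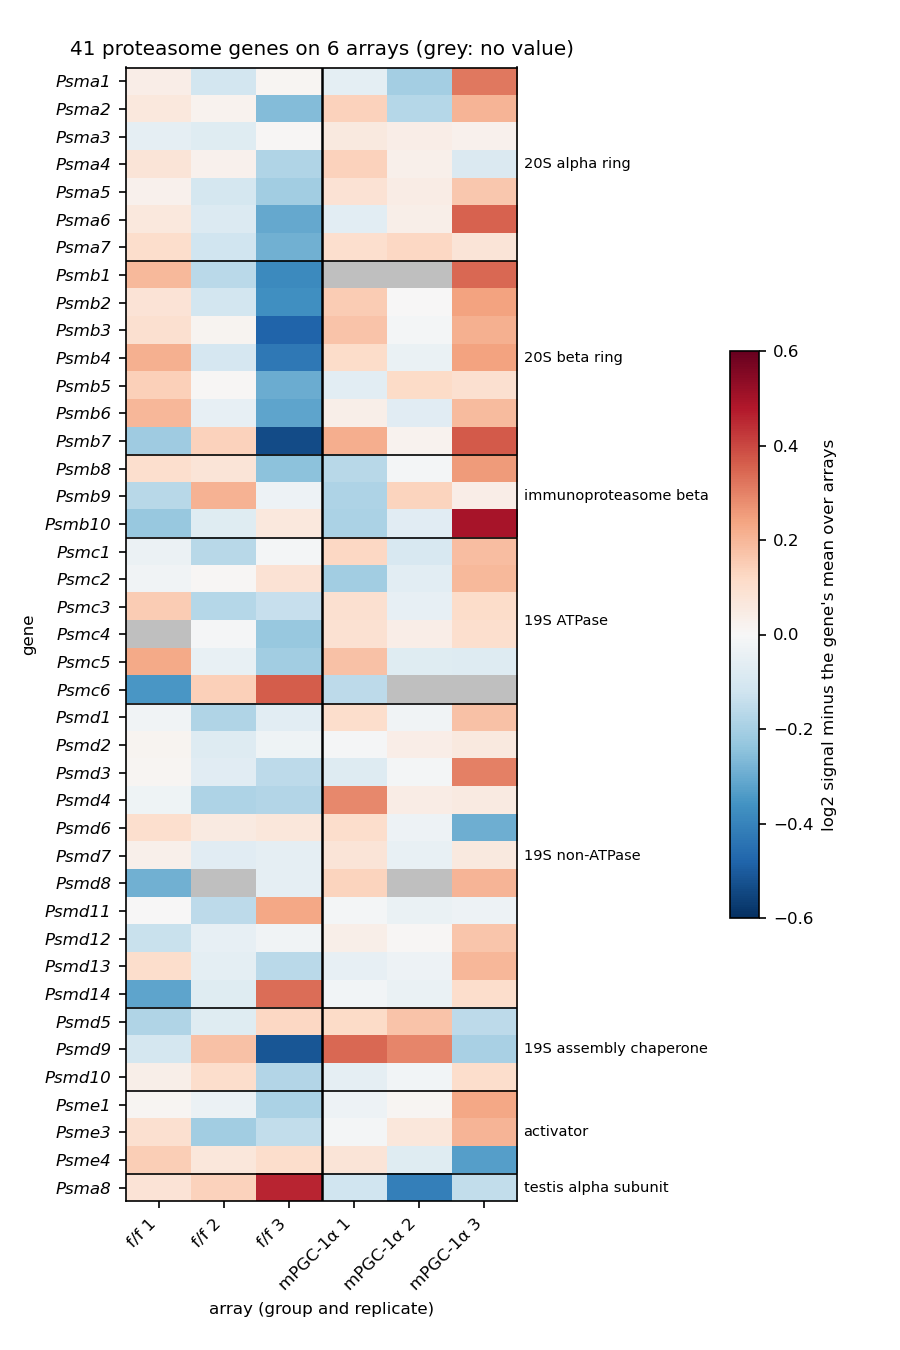
Log2 signal of each tested proteasome gene (rows, by role) on each array (columns), minus the gene's mean over the arrays with a value. Red is above and blue below that mean, and grey marks a value lost as an outlier spot. Most core genes are blue in PGC-1αf/f replicate 3, which is lowest for 11 of the 13 core genes with all values but for 3 of 14 genes of the 19S particle.

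Among the alpha subunits, which form the gate of the barrel, the differences ran from 0.038 (Psma1) to 0.22 (Psma6). Without mPGC-1α replicate 3 these were -0.11 and 0.097, and without PGC-1αf/f replicate 3 Psma6 was at 0.12. Psma3 stood at 3.51, 3.49 and 3.57 in PGC-1αf/f and at 3.62, 3.60 and 3.59 in mPGC-1α. The groups did not overlap at this probe, and the difference was 0.081 (adjusted p = 0.745). Its second probe overlapped, with a difference of 0.015 (adjusted p = 0.963). Psma5 stood at 3.20, 3.07 and 2.96 against 3.26, 3.22 and 3.34, again without overlap, with a difference of 0.19 (adjusted p = 0.463). For Psma4, which had 4 tested probes, the differences ran from -0.059 to 0.22, so that its direction was not settled.

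At their brightest probes the catalytic subunits overlapped between groups. Psmb5, which carries the chymotrypsin-like activity, stood at 2.69, 2.56 and 2.25 in PGC-1αf/f and at 2.49, 2.66 and 2.65 in mPGC-1α (difference 0.099, SE 0.16, adjusted p = 0.768). Psmb6, the caspase-like subunit, stood at 3.78, 3.54 and 3.27 against 3.62, 3.52 and 3.77 (difference 0.11, adjusted p = 0.766). For both genes the low value was that of PGC-1αf/f replicate 3, and the differences without that array were -0.025 and -0.023. The second Psmb6 probe read 3.47, 3.38 and 3.37 against 3.48, 3.55 and 3.64, which do not overlap (difference 0.15, adjusted p = 0.546). Psmb7, the trypsin-like subunit, had the smallest p among the genes with a positive difference. It stood at 0.44, 0.79 and 0.12 in PGC-1αf/f and at 0.87, 0.68 and 1.02 in mPGC-1α, a difference of 0.41 (SE 0.20, adjusted p = 0.352). One mPGC-1α array lay below PGC-1αf/f replicate 2. Leaving out PGC-1αf/f replicate 3 gave 0.24 (adjusted p = 0.652).

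The other beta subunits of the core form the rings without carrying active sites. Psmb2 stood at 3.09, 2.90 and 2.65 against 3.17, 3.01 and 3.25 (difference 0.26, adjusted p = 0.429, and 0.14 without PGC-1αf/f replicate 3). Psmb1 had a difference of 0.46, with an SE of 0.29 (adjusted p = 0.455), and of 0.28 with outlier spots kept. It was read at 3.30, 2.95 and 2.73 in PGC-1αf/f but only at 3.45 in mPGC-1α replicate 3, since its spots on the other mPGC-1α arrays were outliers and were dropped. Psmb3 and Psmb4, each overlapping, had differences of 0.25 and 0.21, and of 0.068 and 0.048 without PGC-1αf/f replicate 3.

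None of the immunoproteasome genes passed the test, and the values of the 2 groups overlapped for each. Psmb8 (LMP7) stood at 3.10, 3.08 and 2.75 in PGC-1αf/f and at 2.83, 2.99 and 3.25 in mPGC-1α (difference 0.048, SE 0.17, adjusted p = 0.904). Psmb9 (LMP2) stood at 2.09, 2.46 and 2.23 against 2.07, 2.39 and 2.29 (difference -0.008, adjusted p = 0.984). Psmb10 (MECL-1) stood at 3.13, 3.28 and 3.42 against 3.17, 3.29 and 3.85 (difference 0.16, adjusted p = 0.715). The high Psmb10 value was that of mPGC-1α replicate 3, and leaving it out gave -0.048. The 95% intervals of the fold ran from 0.781 to 1.37 for Psmb8, from 0.765 to 1.29 for Psmb9 and from 0.795 to 1.57 for Psmb10, so that a doubling lay outside each of them.

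Other interferon-responsive genes stood higher in the mPGC-1α arrays. A list of 17 such genes with a probe had a mean level of 0.30, 0.42 and -0.13 in PGC-1αf/f and of 0.86, 1.09 and 1.32 in mPGC-1α, without overlap. All 17 were above 0 (52.9% of all genes) with a median of 1.06, and 13 were higher at an unadjusted p under 0.05 (7.83% of all genes), although 0 passed the adjusted threshold. Blood leukocyte markers were also higher in mPGC-1α, with 16 of 18 tested above 0 and a median of 1.18, where 16 of the 18 were well above background on all arrays. Endothelial and mural markers (8 of 8), border macrophage markers (7 of 7), erythroid markers (4 of 4) and neuronal markers (6 of 8) were mostly above 0 too, with medians of 0.63, 0.31, 0.12 and 0.18. For the endothelial and mural, border macrophage, erythroid and neuronal lists the array means of the groups overlapped. No member of these lists was past an unadjusted p of 0.05. Among the leukocyte markers Ly6g had a difference of 3.255, read in PGC-1αf/f on replicate 3 alone. Oligodendrocyte markers were above 0 in 1 of 10 (median -0.58, with 8 of the 10 clear of background on all arrays). Of these markers, 5 were lower at an unadjusted p under 0.05, beside 5.75% of all genes, and 0 passed the adjusted threshold. The mean level of this list was -0.91, -0.63 and -0.26 in PGC-1αf/f and -1.15, -1.39 and -1.53 in mPGC-1α, without overlap. Microglial markers were above 0 in 2 of 12 (median -0.089), with Cx3cr1, where the Cre is placed, at -0.51 (adjusted p = 0.194). The mean leukocyte level was 0.68, 0.98 and -1.72 against 0.86, 1.13 and 1.33. The immunoproteasome genes, by comparison, stood a median of -0.17, 0.076 and -0.028 from their means in PGC-1αf/f and -0.19, -0.014 and 0.25 in mPGC-1α. The part of these cell types in the interferon list was not tested.

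**Figure D3:**
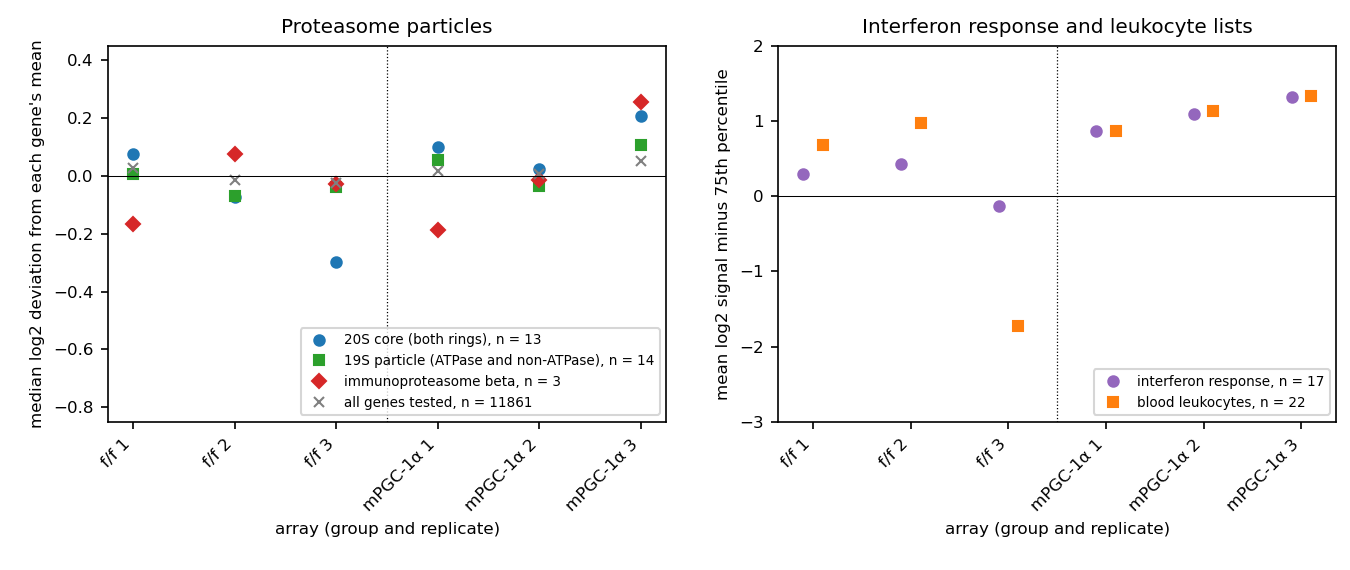
Left, median log2 deviation from each gene's own mean on each array for the 20S core, the 19S particle, the immunoproteasome beta subunits and all genes with 6 values. Right, mean level (log2 intensity less the 75th percentile) for the interferon response and blood leukocyte lists. The interferon list is higher on every mPGC-1α array than on any PGC-1αf/f array, while the proteasome groups overlap, and PGC-1αf/f replicate 3 is low for the 20S core and the leukocyte list.

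Moreover, the exchange of constitutive for inducible subunits was examined as a ratio within each array, from which a constant shift of an array drops out. Only changes of a ratio between groups have a meaning, since its level also holds the brightness of the probes. Psmb8 over Psmb5 was 0.48 ± 0.06 in PGC-1αf/f and 0.43 ± 0.16 in mPGC-1α (log2, SD, n = 3 each), a difference of -0.051 (exact permutation p = 0.8). Psmb9 over Psmb6 was -1.27 ± 0.37 and -1.38 ± 0.23, a difference of -0.12 (exact permutation p = 0.8). For Psmb10 over Psmb7 the values were 2.83 ± 0.43 and 2.58 ± 0.27, a difference of -0.25 (exact permutation p = 0.5). In each of these ratios the groups overlapped. With PGC-1αf/f replicate 3 left out, the differences of the Psmb9 and Psmb10 ratios were -0.00175 and -0.00844. PA28 could be examined through Psme1 alone, and Psme1 over Psme3 was -0.27 ± 0.14 and -0.31 ± 0.04 (difference -0.033, exact permutation p = 0.9). After Benjamini-Hochberg adjustment over these 4 pairs each two-sided p was 0.9, and 3 arrays against 3 cannot go below 0.1.

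**Figure D4:**
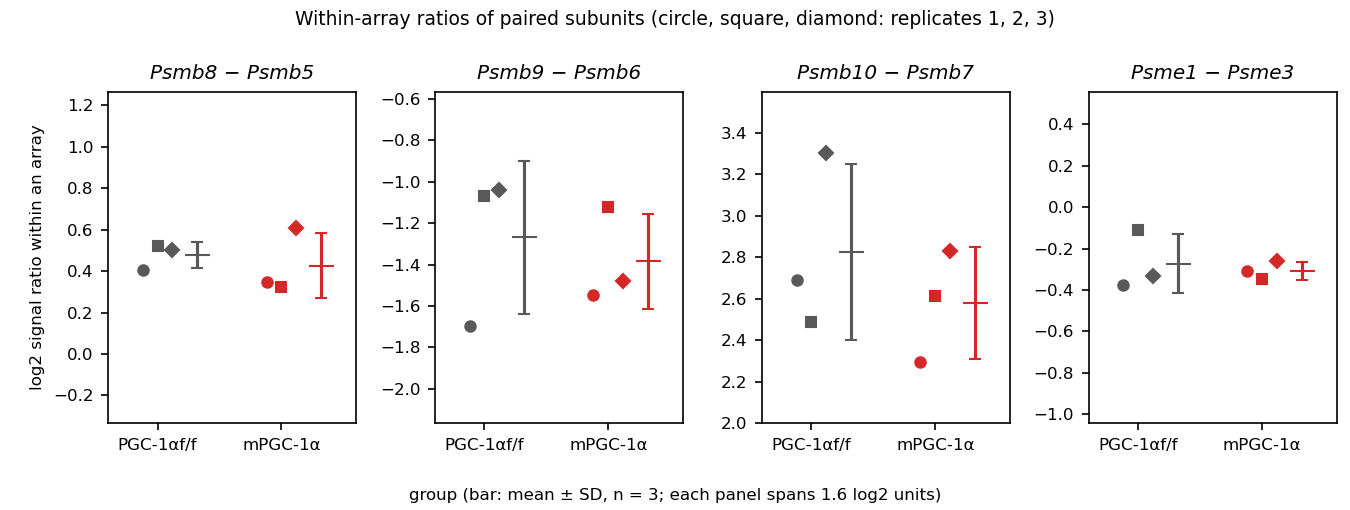
Log2 signal ratio within an array (y axis) for 4 pairs of subunits, in PGC-1αf/f (grey) and mPGC-1α (red). In 3 pairs the catalytic subunits can take each other's place, while Psme1 and Psme3 belong to different caps. Symbols are replicates 1 to 3, and bars give the mean ± SD (n = 3). The groups overlap in every panel.

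Psma8 encodes the alpha subunit of the testis-specific spermatoproteasome and was the member with the smallest p. It stood at -1.54, -1.48 and -1.16 in PGC-1αf/f and at -1.74, -2.03 and -1.77 in mPGC-1α, so that the groups did not overlap. The difference was -0.45 (SE 0.16, 0.732-fold with a 95% interval of 0.561 to 0.955, unadjusted p = 0.0274, adjusted p = 0.256, limma). The second Psma8 probe was clear of background on 2 PGC-1αf/f arrays and 1 mPGC-1α array and was not tested. It read -3.63, -3.42 and -3.07 against -4.11, -4.19 and -2.70, which overlap. Without PGC-1αf/f replicate 3 the first probe gave -0.33 (adjusted p = 0.453).

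In the 19S regulatory particle, 13 of 17 genes were above 0 (52.9% of all genes) with a median of 0.077, and no adjusted p was under 0.375. After alignment on the medians 6 of 17 were above 0 (34.7% of all genes) and after quantile normalization 11 of 17 (47.1% of all genes). By array the particle stood at 0.008, -0.070 and -0.039 in PGC-1αf/f and at 0.055, -0.035 and 0.11 in mPGC-1α, as medians of deviations. Psmd4, the ubiquitin receptor also known as Rpn10, stood at 2.39, 2.23 and 2.24 in PGC-1αf/f and at 2.71, 2.46 and 2.47 in mPGC-1α. These groups did not overlap, and the difference was 0.26 (SE 0.14, adjusted p = 0.375). At the second Psmd4 probe the groups overlapped, with a difference of 0.18 (adjusted p = 0.825). Psmd12, a subunit of the lid, stood at 2.41, 2.497 and 2.53 against 2.58, 2.55 and 2.71, also without overlap (difference 0.14, adjusted p = 0.589).

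Psmd8, another lid subunit, was read on 2 arrays of each group, at 1.41 and 1.64 in PGC-1αf/f replicates 1 and 3 and at 1.83 and 1.90 in mPGC-1α replicates 1 and 3 (difference 0.34, SE 0.18, adjusted p = 0.403), with 0.22 when PGC-1αf/f replicate 1 was left out. The lid subunits Psmd6 and Psmd11 had negative differences. Psmd6 stood at 1.70, 1.66 and 1.67 against 1.71, 1.57 and 1.31 (difference -0.15, adjusted p = 0.622), the low value being that of mPGC-1α replicate 3. Leaving that array out gave -0.038, and the other Psmd6 probes gave -0.054 and -0.021. Psmd11 stood at 1.88, 1.72 and 2.11 against 1.86, 1.84 and 1.85 (difference -0.051, adjusted p = 0.876), and the mPGC-1α values fell inside the range of the controls. Psmd14, the deubiquitinase that removes the chain from the substrate, had a difference of 0.036 (adjusted p = 0.936), or -0.11 without PGC-1αf/f replicate 1, and for the large scaffold subunits Psmd1 and Psmd2 it was 0.17 and 0.058.

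Of the 6 ATPases of the base, 4 were above 0, and the differences ran from -0.21 to 0.19. Psmc6 had a difference of -0.21 (SE 0.33, adjusted p = 0.771), which was -0.00289 with outlier spots kept and -0.054 without PGC-1αf/f replicate 3. It was read at 1.74, 2.23 and 2.45 in PGC-1αf/f and at 1.93 on mPGC-1α replicate 1 alone, with the other spots dropped as outliers, so that this value rests on a single array of that group. Psmc4 gave 0.19 at its brighter probe, without PGC-1αf/f replicate 1, and -0.32 at the other, and its direction was not settled. Of the 15 members with at least 2 tested probes, only Psma4 and Psmc4 had probes that differed in sign.

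The 3 chaperones Psmd5, Psmd9 and Psmd10 hold ATPases during the assembly of the base and leave the finished particle. They had differences of 0.085, 0.30 and 0.023, the last adjusted p being 0.944. Psmd9 was at 0.11 and Psmd10 at -0.058 without PGC-1αf/f replicate 3, and Psmd5 at 0.017 without PGC-1αf/f replicate 1. Among the caps other than the 19S particle, Psme1, the alpha subunit of PA28, stood at 3.19, 3.15 and 2.99 in PGC-1αf/f and at 3.15, 3.19 and 3.41 in mPGC-1α (difference 0.14, adjusted p = 0.619), with 0.082 without PGC-1αf/f replicate 3 and 0.061 without mPGC-1α replicate 3. Psme3, which forms the nuclear cap PA28 gamma, stood at 3.56, 3.26 and 3.32 against 3.46, 3.54 and 3.67 (difference 0.18, adjusted p = 0.549). Both overlapped. Psme4, the nuclear activator PA200, stood at 2.27, 2.19 and 2.22 against 2.19, 2.04 and 1.79. It was the only activator with a negative difference, -0.22 (SE 0.15, adjusted p = 0.472) and -0.18 at its second probe, and the lowest value was that of mPGC-1α replicate 3, without which it was -0.105.

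In addition, 44 related genes of the pathway were examined, of which 43 had a probe, and all of these were tested. None passed the threshold, the lowest adjusted p being 0.097. An unadjusted p under 0.05 was reached by 1 higher and 1 lower gene, beside 7.83% and 5.75% of all genes. Of the 43, 19 were above 0 (52.9% of all genes), with a median of -0.033. The gene with the smallest p was Uba6, a ubiquitin-activating enzyme that also charges the modifier FAT10. It stood at -2.43, -2.49 and -1.99 in PGC-1αf/f and at -3.38, -3.20 and -3.43 in mPGC-1α, with no overlap (difference -1.03, SE 0.18, adjusted p = 0.097). Only 2 of the 3 mPGC-1α arrays had it well above background, against 3 PGC-1αf/f arrays, so that it was tested through the group where it was higher. With array weights the difference was -0.84 (adjusted p = 0.0297), past the threshold, as were 1.79% of all genes in that setting. Over the other settings that tested Uba6 the adjusted p ran from 0.0538 to 0.339. Uba1, the main ubiquitin-activating enzyme, had a difference of -0.073, the unfoldase Vcp one of 0.034, and the ubiquitin genes Ubb and Rps27a 0.038 and 0.099.

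Of the 8 regulators of subunit genes, 3 were above 0, with a median of -0.056. Nfe2l1, the factor that raises all subunits when proteasome activity falls short, had a difference of 0.006 (adjusted p = 0.988). Nfe2l2, the oxidative stress factor that binds antioxidant response elements, was read on 1 PGC-1αf/f and 2 mPGC-1α arrays, at 2.69 against 2.92 and 2.03 (difference -0.22, adjusted p = 0.833). Nlrc5, which drives class I genes and Psmb9, stood at 0.009, 0.66 and -0.50 in PGC-1αf/f and at 0.65, 0.80 and 0.94 in mPGC-1α (difference 0.74, SE 0.29, adjusted p = 0.275). Leaving out PGC-1αf/f replicate 3 gave 0.46, and the leukocyte covariate gave 0.345. The Nlrc5 groups overlapped by a small margin, in the value of PGC-1αf/f replicate 2. Irf1, a factor through which interferon gamma acts on the inducible subunits, had a difference of -0.078 (adjusted p = 0.786).

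Of the assembly chaperones of the core, Psmg4 stood at 1.15, 1.204 and 1.24 against 1.47, 1.51 and 1.43, without overlap (difference 0.27, adjusted p = 0.311), and its partner Psmg3 at 0.60, 0.89 and 0.71 against 0.52, 0.62 and 0.41 (difference -0.22, adjusted p = 0.448, and -0.14 without PGC-1αf/f replicate 2). The members of this dimer thus had opposite signs. Pomp, which guides the beta ring, had a difference of 0.030 (adjusted p = 0.96), and Psmf1, the inhibitor PI31, one of -0.19 (adjusted p = 0.516), or -0.101 without mPGC-1α replicate 3 and -0.00795 as the mean over its probes. Among the factors that bind the proteasome, Sem1, a small lid subunit whose symbol lies outside the rule, stood at 3.78, 3.75 and 3.35 against 3.97, 3.88 and 4.12 (difference 0.36, adjusted p = 0.32, and 0.23 without PGC-1αf/f replicate 3). The shuttle receptor Ubqln2, which carries ubiquitinated proteins to the particle, had a difference of -0.17 (adjusted p = 0.48). For Sem1 and Ubqln2 the groups did not overlap.

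Peptides cut by the immunoproteasome reach class I molecules through the TAP transporter, and Tap1 lies beside Psmb9 and Psmb8 in the MHC region. Tap1 stood at 2.04, 2.28 and 2.07 in PGC-1αf/f and at 2.09, 2.40 and 2.21 in mPGC-1α (difference 0.10, adjusted p = 0.744). Erap1, which trims peptides after transport, stood at -0.73, -0.75 and -0.60 against -1.69, -0.93 and -0.78 (difference -0.44, SE 0.25, adjusted p = 0.392), the lowest value being that of mPGC-1α replicate 1, and leaving that array out gave -0.16. Tapbpl, a peptide editor, had a difference of -0.23 (adjusted p = 0.477), and of -0.12 without PGC-1αf/f replicate 2. The 8 genes of class I peptide handling had a median of 0.004, with 5 above 0.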

How the data were processed

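Microglial RNA was hybridized to 1-colour Agilent arrays, 3 of PGC-1αf/f and 3 of mPGC-1α, all on 1 slide and in 1 scan. The deposited files hold Cy5 intensity per spot from Agilent Feature Extraction (version 11.5.1.1, from the submitters' processing notes), with background subtracted. The table of the whole series, also intensity as deposited by the authors, was not normalized between arrays. The authors' methods name GeneSpring for normalization and no test per gene.

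Control spots and outlier spots were dropped, log2 intensity was centred on the array's own 75th percentile (59305 spots), and spots of a probe were averaged. A probe was tested where 1 group or both had it well above background throughout (25333 of 56605, of which 25257 gave a p-value). Spots well above background numbered 27025 to 30272 per array, none was saturated, and the number of arrays limits the precision. Probes were named by transcript accession through a RefSeq gene table (GRCm38.p6). The brightest probe stood for a gene. limma 3.58.1 in R 4.3.3 (with the data.table package, version 1.17.8) was used, with Benjamini-Hochberg adjustment over all tested probes, and the scripts were tested on simulated data. Ratios were tested by exact permutation. Tables and figures were also made with Python 3.11.15, pandas 2.3.3, numpy 2.4.6 and matplotlib 3.10.9.

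Members, gene lists and tests were chosen with earlier results of these data known. Values are given on every array for the catalytic subunits, their inducible counterparts, the activators, members past the threshold and the 5 members with the smallest p in each direction. Those whose groups did not overlap were added after their values were seen. Of the related genes, those past the threshold, up to 5 with the smallest p in each direction and a fixed set of regulators are named. Some genes that this rule names are not reported here. In the PA28 ratio Psme1 stood for the mean of Psme1 and Psme2. The alternatives were other normalizations, filters, blocks, weights, a leukocyte covariate and each array left out.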

Additional observations from a re-analysis of the deposited data

How the results depend on the processing

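The count of 0 members past the threshold held under the main and all 19 other settings, while the probes called among all genes ranged from 0 (replicate block, and without mPGC-1α replicate 3) to 456 (deposited table) and 754 (array weights), against 20 in the main setting. The median difference of the members was 0.108, -0.0243 after alignment on medians, 0.068 without PGC-1αf/f replicate 3 or mPGC-1α replicate 3, and 0.168 without mPGC-1α replicate 2. That median was 0.03 with quantile normalization, 0.056 with normexp and quantile, and 0.065 with the leukocyte covariate. The count of members lower at an unadjusted p under 0.05, 1 in the main setting, was 0 in the deposited table without normalization, without the filter on dim probes and with the leukocyte covariate, and 0 to 1 with an array left out (0 without PGC-1αf/f replicate 3 or mPGC-1α replicate 2). The count of higher members was 0 to 1 (1 of 41 without PGC-1αf/f replicate 2, beside 8.25% of all genes). Related genes past the threshold were 1 with array weights, Uba6 (-0.844), a setting in which 1.79% of all genes passed. The ratio of Psme1 to Psme3 ranged from -0.0845 to 0.0471 with an array left out, positive without PGC-1αf/f replicate 2. The other ratios ranged from -0.142 to -0.000409 (Psmb8 to Psmb5), -0.33 to -0.00175 (Psmb9 to Psmb6) and -0.416 to -0.00844 (Psmb10 to Psmb7). Quantile normalization gave -0.0861, -0.0487 and -0.376 for these, and normexp and quantile gave -0.181 for Psme1 to Psme3.

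Members on the other side of 0 numbered 8 of 41 under quantile normalization, 9 with normexp and quantile, 9 with the leukocyte covariate, 5 with array weights, 3 in the deposited table and 0 to 7 with an array left out. Of the genes named by the rule, quantile normalization gave Psmb6 -0.00464, Psmb8 -0.0438, Nfe2l1 -0.0128 and Pomp -0.159. Median alignment, which subtracts the same amount from every gene with all values and so says nothing of single genes, gave Psmb5 -0.0333, Psmb6 -0.0243, Psmb8 -0.0844, Nfe2l1 -0.127, Pomp -0.168 and Tap1 -0.0316. Normexp and quantile gave Psmb5 -0.0799, Psmb6 -0.0426, Psmb8 -0.137, Psme1 -0.0385, Pomp -0.228 and Tap1 -0.00202. The deposited table gave Nfe2l1 -0.0294 and Pomp -0.285, array weights gave Psmb8 -0.0643, Psmd11 0.0587 and Pomp -0.129, and slide column as a random block gave Psmb8 -0.0113 and Pomp -0.00016. The leukocyte covariate gave Psmb5 -0.065, Psmb6 -0.0583, Psmb8 -0.119, Psmd11 0.0871, Pomp -0.169 and Nfe2l2 5.02 (an extrapolation, since its 3 values leave no residual degrees of freedom), and the mean over probes gave Nfe2l2 1.13. Keeping outlier spots, a setting chosen after seeing the data, gave Pomp -0.0251. With an array left out the ranges for genes whose sign changed were -0.0947 to 0.117 for Nfe2l1, -0.0937 to 0.0937 for Psmb9, -0.0254 to 0.197 for Psmb5, -0.0226 to 0.236 for Psmb6, -0.0664 to 0.144 for Psmb8, -0.0484 to 0.295 for Psmb10, -0.142 to 0.0515 for Psmd11, -0.167 to 0.202 for Pomp and -0.658 to 0.224 for Nfe2l2. Other than for median alignment, the cause of these changes was not tested.

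The labels do not say whether replicate numbers pair the samples, and the main setting did not pair them. Same-numbered deviations correlated at 0.139, 0.127 and 0.0187, and every sample correlated best with its own number, a hint from the data and not a stated design. Both replicates 1 lay in slide column 1 and both replicates 2 in column 2. Replicate 3 lay in column 4 for PGC-1αf/f and in column 3 for mPGC-1α. With the replicate block 0 probes and 0 members were called (20 probes without it), the members' median was 0.115, and Psmc6 turned to 0.193.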
